A study of Mus musculus with 14 samples.

Results

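Cell cycle and DNA replication genes were followed in 14 arrays of mouse blastocysts, cloned or fertilized in vitro. The set holds 40 named genes. They were found by matching gene symbols to the array's gene probes, and 62 of 41174 gene probes carried their names. There were 3 members that appeared under older symbols, Orc1 as Orc1l, Orc6 as Orc6l and Cdk1 as Cdc2a. The members were divided by role into 17 DNA replication genes, 7 regulators of the G1/S transition and 16 genes of G2/M and mitosis. A gene with several probes was represented by its brightest probe over the 14 arrays, and 17 members had several.

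Cloned embryos were made by somatic cell nuclear transfer (SCNT), in which the nucleus of a cumulus cell, a somatic cell that surrounds the oocyte, replaces the chromosomes of an enucleated oocyte. The cumulus nucleus was brought in by fusion of the whole cell (fusion clones, 4 arrays) or by piezo-driven injection of the nucleus (injection clones, 4 arrays), and the design asks whether this step alters gene expression. Conventional in vitro fertilization (IVF) gave 3 male and 3 female control blastocysts, and all embryos were cultured in KSOM medium to E4.0. Per the methods the reconstructed oocytes were activated with SrCl2 and held in cytochalasin B. The clones carry a female donor genome and are labelled female, so that the female IVF embryos are their sex-matched control. The study's methods give a BDF1 background for oocytes, donors and IVF embryos, and state that nuclear donors came from heterozygous Xist knockout BDF1 mice, without saying so separately for these blastocysts. The labels describe RNA extraction from single embryos but name tissues of a later stage, so whether each array held 1 blastocyst is not given in the sources used here. Replicates are separate samples by their labels, and p-values measure the spread between these samples.

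Before DNA synthesis, the origin recognition complex with Cdc6 and Cdt1 loads the Mcm2 to Mcm7 helicase onto chromatin, and geminin (Gmnn) blocks Cdt1 from loading it again. D- and E-type cyclins with their kinases drive the entry into S phase, whereas cyclins A and B with Cdk1, together with the Polo and Aurora kinases, drive mitosis. Transcription of the first group is controlled largely by E2F factors, and that of the mitotic group largely through CHR and CCAAT promoter elements.

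The promoter windows printed here are those of 5 members that passed the test between a clone group and female IVF embryos, and that of Mcm5. Mcm5 did not pass and is shown because its window holds all 3 kinds of motif searched, as does that of Cdk1, which is not printed. Each window runs from 250 bases before to 50 bases after the RefSeq transcription start in GRCm38.p6, read 5′ to 3′ on the strand of the gene. Capitals mark E2F motifs (TTTCCCGC, TTTCGCGC, TTTGCCGC or TTTGGCGC), CHR motifs (TTTGAA or TTTAAA) and CCAAT motifs on either strand. Motifs that overlap, as where an E2F motif is read on both strands, form a single run of capitals. The window of Mcm2 lies at chr6:88898731-88899030 on the minus strand, that of Mcm3 at chr1:20820263-20820562 on the minus strand and that of Mcm5 at chr8:75109259-75109558 on the plus strand. The window of Cdk2 lies at chr10:128705002-128705301 on the minus strand, that of Cdc25a at chr9:109875329-109875628 on the plus strand and that of Kif11 at chr19:37376132-37376431 on the plus strand.
Mcm2: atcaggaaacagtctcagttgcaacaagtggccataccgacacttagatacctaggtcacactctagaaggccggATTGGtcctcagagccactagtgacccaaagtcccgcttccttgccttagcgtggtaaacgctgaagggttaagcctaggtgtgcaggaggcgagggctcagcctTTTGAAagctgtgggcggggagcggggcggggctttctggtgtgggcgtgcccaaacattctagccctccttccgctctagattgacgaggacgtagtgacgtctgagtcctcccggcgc
Mcm3: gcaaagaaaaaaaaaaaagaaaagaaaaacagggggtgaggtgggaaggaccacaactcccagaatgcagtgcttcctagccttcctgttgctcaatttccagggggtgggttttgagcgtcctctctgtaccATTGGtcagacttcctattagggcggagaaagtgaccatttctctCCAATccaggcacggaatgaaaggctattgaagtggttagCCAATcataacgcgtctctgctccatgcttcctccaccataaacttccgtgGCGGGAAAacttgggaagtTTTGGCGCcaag
Mcm5: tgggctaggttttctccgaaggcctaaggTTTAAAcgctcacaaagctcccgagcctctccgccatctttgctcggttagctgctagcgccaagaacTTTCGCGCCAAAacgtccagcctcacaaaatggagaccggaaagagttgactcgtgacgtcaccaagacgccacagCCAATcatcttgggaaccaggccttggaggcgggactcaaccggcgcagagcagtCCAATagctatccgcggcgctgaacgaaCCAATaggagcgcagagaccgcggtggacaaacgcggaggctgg
Cdk2: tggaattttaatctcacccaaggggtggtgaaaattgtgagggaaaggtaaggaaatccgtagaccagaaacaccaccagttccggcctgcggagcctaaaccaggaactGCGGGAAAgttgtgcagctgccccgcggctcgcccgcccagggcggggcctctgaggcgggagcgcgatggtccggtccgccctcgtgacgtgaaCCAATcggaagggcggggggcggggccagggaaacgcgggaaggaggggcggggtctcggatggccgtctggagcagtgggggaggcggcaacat
Cdc25a: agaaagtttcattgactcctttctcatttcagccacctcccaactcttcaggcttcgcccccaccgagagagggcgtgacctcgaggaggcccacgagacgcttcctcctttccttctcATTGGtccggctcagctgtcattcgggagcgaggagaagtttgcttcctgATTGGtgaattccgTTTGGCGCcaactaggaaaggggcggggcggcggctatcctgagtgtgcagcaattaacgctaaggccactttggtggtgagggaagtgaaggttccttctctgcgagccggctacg
Kif11: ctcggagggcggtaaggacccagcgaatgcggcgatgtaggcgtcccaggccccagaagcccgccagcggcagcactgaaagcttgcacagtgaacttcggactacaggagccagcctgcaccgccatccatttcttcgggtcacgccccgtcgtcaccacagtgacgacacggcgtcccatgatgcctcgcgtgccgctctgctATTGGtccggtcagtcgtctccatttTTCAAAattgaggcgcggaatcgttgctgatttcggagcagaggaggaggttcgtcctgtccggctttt
The window of Mcm3 held E2F and CCAAT motifs, that of Mcm2 a CHR and a CCAAT motif and no E2F motif, and that of Mcm5 all 3 kinds. Those of Cdk2 and Cdc25a held E2F and CCAAT motifs, and that of Kif11, a mitotic kinesin, held a CHR and a CCAAT motif. RefSeq windows were matched for 32 of the 40 members, and those without an entry were Mcm4, Gmnn, Ccnd1, Ccnd2, Ccne2, Ccna2, Cdc25c and Aurkb. A gene with several windows was counted where any of them held the motif. An E2F motif was found for 7 of 15 replication genes (46.7%) and for 1 of 13 mitosis genes (7.69%), Cdk1, beside 2.6% of all 27025 genes. A CHR motif was found for 4 of 15 replication genes (26.7%) and 11 of 13 mitosis genes (84.6%), beside 30.6% of all genes. A CCAAT motif was found for 25 of 32 members (78.1%), beside 41.1% of all genes. A match describes the letters and is neither a bound site nor a cause of a change.

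The labelled tissue was checked against markers of the blastocyst lineages. The epiblast markers Pou5f1, Nanog and Sox2 and the trophectoderm markers Cdx2, Gata3, Krt8, Krt18 and Eomes were well above background on all 14 arrays. Of the primitive endoderm markers, Gata6 and Pdgfra were well above background on every array and Gata4 and Sox17 were not. The log2 level of Sox17 was 10.64, 14.47, 14.998 and 4.0 in the fusion clones and 7.06, 4.0, 14.81 and 11.43 in the injection clones, against 13.20 to 14.28 in the 6 IVF embryos. Gata4 was at the floor in fusion clones 1 and 4 and injection clones 1 and 2, against 7.19 to 9.37 in the IVF embryos. Against the female embryos 3 of the 4 primitive endoderm markers had lower means in fusion clones (median -1.82) and 4 of 4 in injection clones (median -2.54), with 0 past the adjusted threshold. Of 6 cumulus cell markers, Has2, Ptx3, Tnfaip6 and Inhba were well above background on none of the 8 clone arrays. Their highest values were in single IVF embryos, with Inhba at 10.499 in male embryo 3 and Has2 at 8.22 in female embryo 3. In male embryo 1 Tnfaip6 read 7.42 and Ptx3 read 4.49. The clones read 4.0 to 4.18 for these markers. The other cumulus markers were higher in clones or in single clones. Amhr2 read 9.82 to 11.31 in the 8 clones, above all 6 IVF embryos at 7.97 to 9.58, and exceeded the female mean by 1.35 in fusion (limma adjusted p = 0.165) and 1.77 in injection clones (limma adjusted p = 0.0839). Cyp19a1 read 9.09 and 8.28 in injection clones 1 and 2, against 4.30 to 5.07 in the female embryos. The log2 of the 6 summed cumulus signals ran from 9.95 to 11.37 in fusion clones, 10.63 to 11.25 in injection clones, 9.53 to 10.81 in male and 9.30 to 9.73 in female IVF embryos, and its part in the results was not tested. Levels are log2 of quantile-normalized processed signal with a floor of 16, which is 4.0 on this scale, and are relative to all probes of an array, so that fewer dividing cells and less RNA per cell cannot be told apart. Spots well above background made up 57.4% to 65.2% of an array. Processed signals lay below 0 at 6790 to 9981 gene spots of each IVF array and at 0 of each clone array. Dim values of clones and IVF embryos may therefore not be alike, which was not tested. Each group lay on its own slide, and clone and IVF arrays were read by different scanners and software versions, so that slide, scanner and group cannot be told apart. The number of arrays limits the precision of every difference.

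Of the 40 members, 38 were well above background on every array. The others were Ccnd1 and Ccnd2, the D1 and D2 cyclins that couple growth signals to S-phase entry. All 40 entered each comparison, for which detection above background on a single array of either group sufficed. In the fusion clones 36 of 40 members had a lower mean than in the female IVF embryos, and in the injection clones 37 of 40. The median log2 difference was -0.48 for fusion and -0.49 for injection clones, beside -0.17 and -0.13 over all genes tested by their brightest probe. In both comparisons the female IVF embryos are the shared control. Over all genes 59.6% were lower in fusion clones and 58.6% in injection clones. Male IVF embryos also had a lower mean than female embryos in 33 of 40 members, with a median of -0.27 beside -0.04 over all genes.

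**Figure D1:**
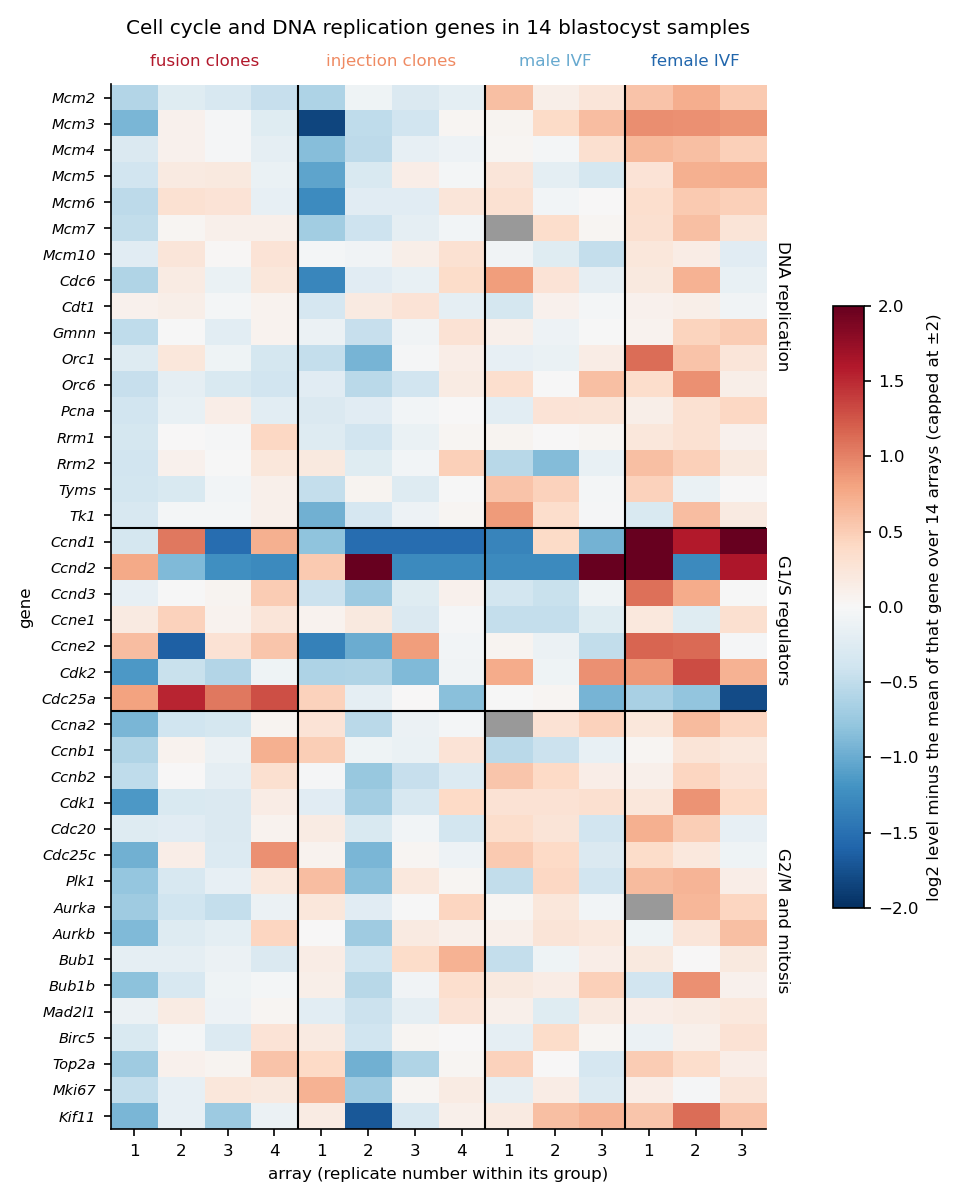
Level of the 40 members (rows, by role) in the 14 arrays (columns, by group), as the log2 level minus the mean of that gene over the 14 arrays, with colors capped at 2 on either side and grey for a value missing as an outlier spot. Mcm3 and Mcm4 are highest in the female IVF embryos, fusion clone 1 is low across most replication and mitosis genes, and injection clone 1 is low in most replication genes but not in the mitosis genes.

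When limma p-values were adjusted by Benjamini-Hochberg over all probes tested, 5 of 40 members passed an adjusted p of 0.05 in fusion clones against female IVF embryos, beside 9.06% of all genes. Mcm2, Mcm3, Cdk2 and Kif11 were lower, and Cdc25a was higher. For the lower direction the share over all genes was 5.58%, and for the higher direction 3.48%. In injection clones 3 of 40 members (7.5%) passed, beside 3.75% of all genes, and Mcm2, Ccnd1 and Cdk2 were all lower, beside 2.42% of genes lower and 1.33% higher. Mcm2 and Cdk2 passed in both. With the criterion of the methods, a 2-fold difference at an unadjusted 5% level, 5 members were lower and 1 higher in fusion clones, beside 8.90% and 6.75% of all genes, and 3 were lower and 0 higher in injection clones, beside 7.51% and 5.78%. Both counts fell whichever array was left out, which also leaves a smaller group to test. Leaving out each of 7 arrays in turn gave 2 to 4 members in fusion clones and 0 to 2 in injection clones, and members with lower means numbered 34 to 38 and 35 to 39.

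The choice of control moved the count of lower members more than the scalings tried, which gave 36 to 38 in either clone group. Against the 3 male IVF embryos, an alternative chosen after seeing the data, 29 of 40 members were lower in fusion clones with a median log2 difference of -0.19, and 29 of 40 in injection clones with a median of -0.26. Cdc25a alone then passed in fusion clones (log2 difference 1.47, adjusted p = 0.0436) and 0 members passed in injection clones. Against male and female IVF embryos together, 34 and 32 members were lower.

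**Figure D2:**
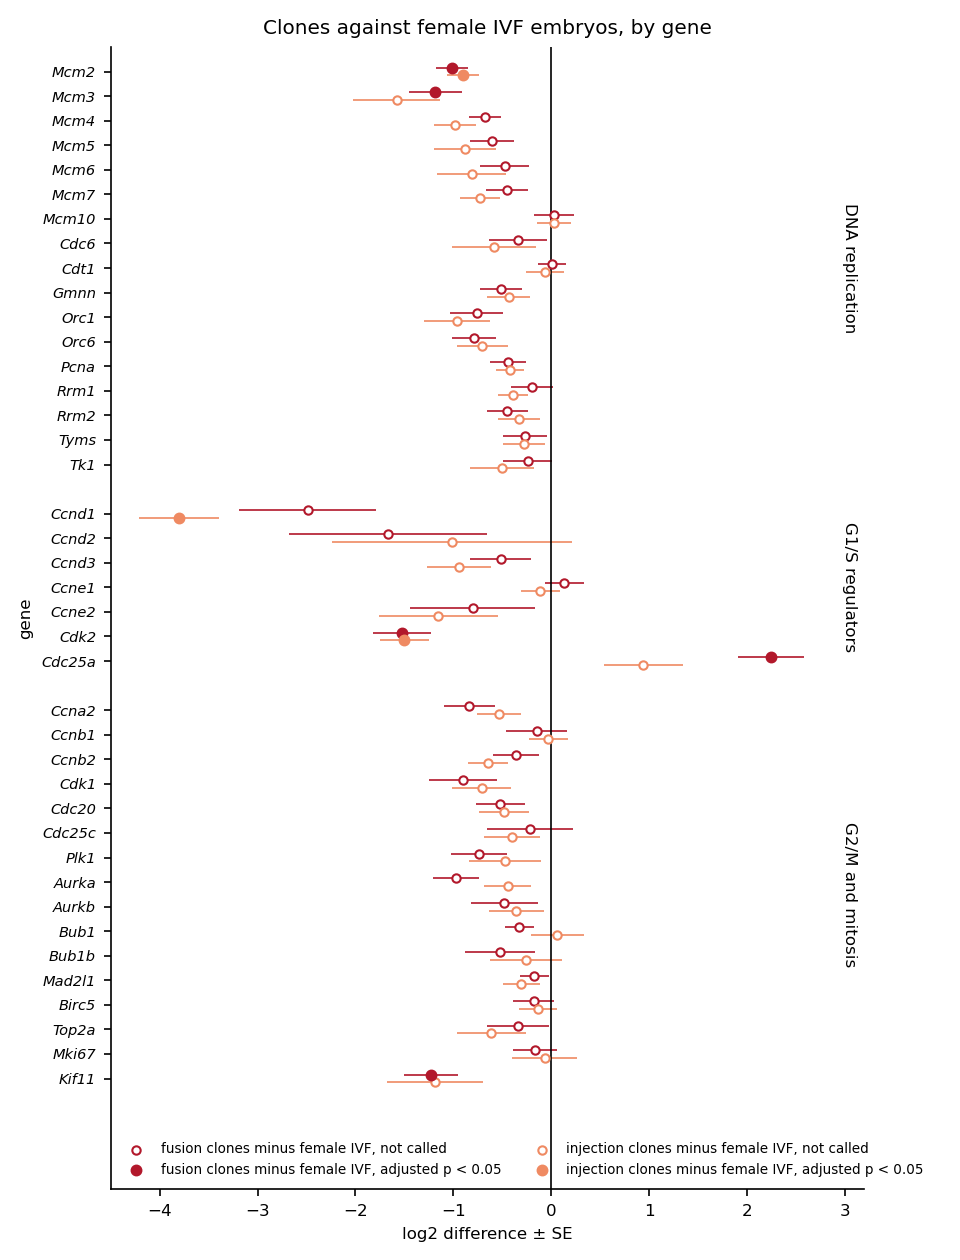
Log2 difference of each member between fusion clones (red) or injection clones (orange) and female IVF embryos, with its standard error, and filled points where the adjusted p is below 0.05. The Mcm2 to Mcm7 genes lie left of 0 in both groups, Mcm10 and Cdt1 lie at 0, and Cdc25a lies to the right.

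The 6 subunits of the replicative helicase, Mcm2 to Mcm7, had lower means in both clone groups than in the female IVF embryos. The log2 differences ran from -1.18 to -0.45 in fusion clones with a median of -0.64, and from -1.58 to -0.73 in injection clones with a median of -0.89. For each of the 6 genes, all 4 fusion clones and all 4 injection clones lay below all 3 female IVF embryos. Over all genes 17.0% were separated in this way in fusion and 13.9% in injection clones, lower in the clones. The male IVF embryos also lay below all 3 female embryos for 4 of the 6 genes, Mcm3, Mcm4, Mcm5 and Mcm6. For these 4 genes the separation from the female embryos was thus not confined to the clones. Of the 6, 2 passed the adjusted threshold in fusion clones, beside 9.06% of all genes, and 1 in injection clones, beside 3.75%. A dim second Mcm4 probe, well above background on 3 of 7 arrays, went the other way in fusion clones, by 0.68.

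Mcm2 read 13.91, 14.26, 14.18 and 14.04 in the fusion clones, 13.90, 14.41, 14.22 and 14.32 in the injection clones, 15.11, 14.63 and 14.75 in male and 15.08, 15.23 and 15.03 in female IVF embryos. All 8 clones lay below all 6 IVF embryos. Its log2 difference from the female embryos was -1.01 ± 0.16 (SE) in fusion clones (limma adjusted p = 0.0182, n = 4 and 3) and -0.90 ± 0.17 in injection clones (limma adjusted p = 0.0461, n = 4 and 3). The fusion call held without any of the 7 arrays (adjusted p 0.0245 to 0.0370), whereas the injection call was lost without any 1 of its 7 arrays (0.0589 to 0.102) and with the deposited log2 table (0.0914). Mcm2 and Kif11 were the only 2 of 40 members with all clones below all IVF embryos, beside 4.70% of all genes, and 0 members had all clones above, beside 2.21%.

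Mcm3 read 14.39, 15.38, 15.29 and 15.07 in the fusion clones, 13.48, 14.79, 14.92 and 15.35 in the injection clones, 15.36, 15.68 and 15.93 in male and 16.23, 16.23 and 16.18 in female IVF embryos. The female embryos stood above every other array, and the clones overlapped the male embryos. The log2 difference was -1.18 ± 0.27 in fusion clones (limma adjusted p = 0.0437) and -1.58 ± 0.44 in injection clones (limma adjusted p = 0.102). The fusion call held only without fusion clone 1. It was lost without each of the other 6 arrays (adjusted p up to 0.0947). A second Mcm3 probe gave -0.62 and -1.09, with neither past the threshold.

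Mcm5 read 13.46, 14.03, 14.04 and 13.72 in the fusion clones, 12.80, 13.54, 13.99 and 13.81 in the injection clones, 14.09, 13.65 and 13.50 in male and 14.12, 14.56 and 14.57 in female IVF embryos. Clones and male embryos overlapped, and both lay below the female embryos. The log2 difference was -0.60 ± 0.22 in fusion clones (limma adjusted p = 0.145) and -0.88 ± 0.32 in injection clones (limma adjusted p = 0.173). Mcm4, Mcm6 and Mcm7 gave differences of -0.67, -0.48 and -0.45 in fusion clones and of -0.98, -0.81 and -0.73 in injection clones, none of which passed. Mcm7 was measured on 2 of the 3 male arrays. In male against female IVF embryos the 6 subunits also had lower means, from -0.67 to -0.20, and 0 passed.

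**Figure D3:**
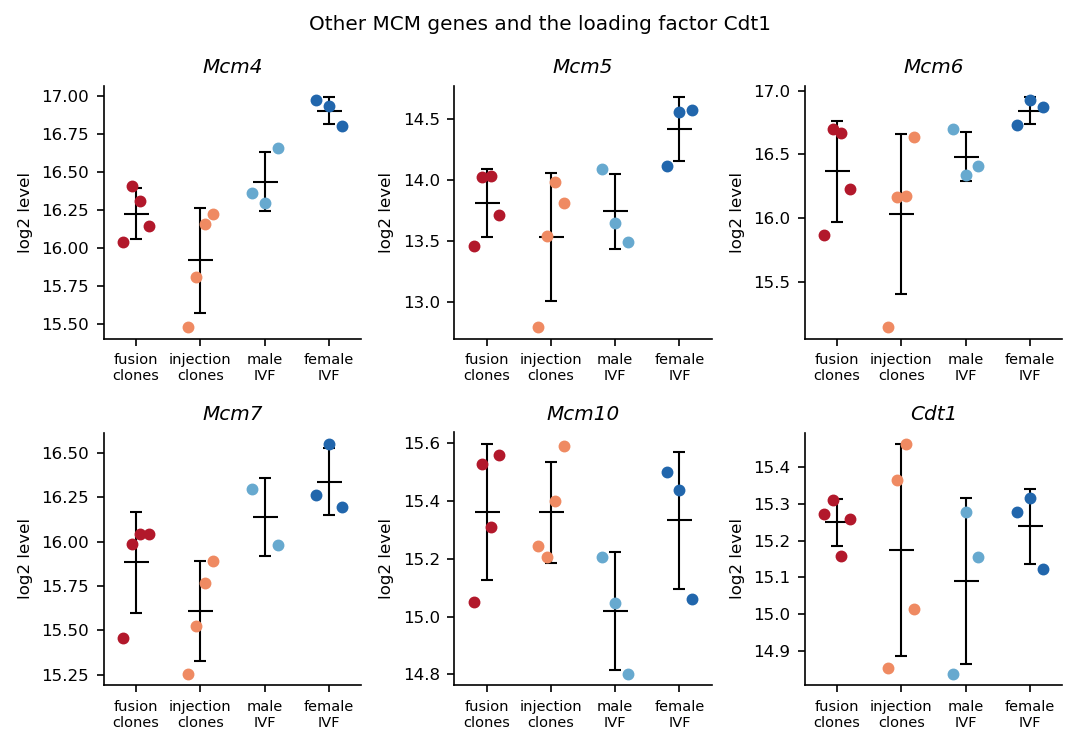
Log2 level of Mcm4, Mcm5, Mcm6, Mcm7, Mcm10 and Cdt1 by array in the 4 groups, with the mean and SD in black. The clones lie below the female IVF embryos for the helicase subunits Mcm4 to Mcm7, as do the male embryos for Mcm4 to Mcm6. The groups overlap for Mcm10 and Cdt1.

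The other licensing factors ranged from no clear difference to a separation like that of the Mcm genes. Mcm10, which joins the helicase at firing, differed by 0.03 ± 0.21 in fusion and 0.03 ± 0.17 in injection clones. Cdt1, the helicase loader, read 15.27, 15.31, 15.16 and 15.26 in the fusion clones, 14.85, 15.37, 15.46 and 15.01 in the injection clones, 14.84, 15.28 and 15.16 in male and 15.28, 15.31 and 15.12 in female IVF embryos. The 4 groups overlapped, with differences from the female embryos of 0.01 ± 0.14 and -0.06 ± 0.19. Geminin read 15.37, 15.87, 15.67 and 15.96 in the fusion clones, 15.77, 15.42, 15.81 and 16.18 in the injection clones, 15.99, 15.79 and 15.88 in male and 15.95, 16.34 and 16.40 in female IVF embryos. It overlapped between groups, at -0.51 ± 0.22 (limma adjusted p = 0.188) and -0.43 ± 0.22 (limma adjusted p = 0.304). Orc1, the largest subunit of the origin recognition complex, differed by -0.76 and -0.96 in fusion and injection clones, and Orc6 by -0.79 and -0.70. All clones of both groups lay below all female embryos for Orc1, as did all male IVF embryos, and all fusion clones did for Orc6. Cdc6 differed by -0.34 and -0.58. None of these passed the adjusted threshold.

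The sliding clamp and the enzymes that supply nucleotides had lower means in all 5 genes in both clone groups, with medians of -0.27 and -0.39, and 0 passed in either. Pcna, the clamp, read 15.49, 15.72, 16.004 and 15.66 in the fusion clones, 15.59, 15.65, 15.82 and 15.89 in the injection clones, 15.67, 16.15 and 16.14 in male and 15.997, 16.18 and 16.30 in female IVF embryos. Its difference was -0.44 ± 0.18 in fusion clones, where the groups overlapped, and -0.42 ± 0.15 in injection clones, all of which lay below the female embryos (limma adjusted p = 0.188 and 0.159). Rrm2, the regulated subunit of ribonucleotide reductase, read 15.40, 15.86, 15.78 and 16.003 in the fusion clones, 15.98, 15.54, 15.73 and 16.25 in the injection clones, 15.22, 14.92 and 15.63 in male and 16.39, 16.26 and 15.98 in female IVF embryos. The clones overlapped both sexes for Rrm2, and all males lay below all females, at -0.95 ± 0.28 against the females (limma adjusted p = 0.544). Rrm1, Tyms and Tk1, which serve the same supply, differed by -0.19, -0.27 and -0.24 in fusion and by -0.39, -0.28 and -0.50 in injection clones.

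Among the 7 regulators of the G1/S transition, 2 were called in fusion clones, 1 lower and 1 higher (28.6%, beside 9.06% of all genes), and 2 lower in injection clones (28.6%, beside 3.75%). In fusion clones the 2 largest differences of the whole set, those of Ccnd1 and Cdc25a, were in this group and ran in opposite directions.

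Cdc25a, the phosphatase that activates Cdk2 at S-phase entry, read 11.51, 12.23, 11.75 and 11.997 in the fusion clones, 11.16, 10.52, 10.71 and 9.87 in the injection clones, 10.69, 10.75 and 9.77 in male and 10.05, 9.92 and 8.91 in female IVF embryos. The fusion clones stood above all other arrays, and the injection clones overlapped both kinds of IVF embryo. The log2 difference from female embryos was 2.25 ± 0.34 in fusion clones, a 4.75-fold higher level (limma adjusted p = 0.0160), and 0.94 ± 0.41 in injection clones (limma adjusted p = 0.232). Fusion against injection clones gave 1.30 ± 0.29 with an unadjusted p of 0.00293 and an adjusted p of 0.520, so that a difference between the transfer methods did not pass. A second probe gave 1.89 in fusion clones. The fusion call held without any of the 7 arrays, at an adjusted p of 0.0235 to 0.0477.

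Ccnd1 (cyclin D1) read 5.17, 6.58, 4.0 and 6.23 in the fusion clones, 4.71, 4.0, 4.0 and 4.0 in the injection clones, 4.20, 5.90 and 4.58 in male and 8.198, 7.10 and 8.64 in female IVF embryos. The female embryos were above every other array, and clones and male embryos overlapped. Its signal was well above background on 3 of 4 fusion and 2 of 4 injection arrays, and on all IVF arrays. The difference from female embryos was -3.80 ± 0.41 in injection clones (limma adjusted p = 0.0164) and -2.49 ± 0.70 in fusion clones (limma adjusted p = 0.0753), and that of male from female embryos was -3.09 ± 0.61 (limma adjusted p = 0.371). Since 3 of 4 injection values lay at the floor, the size and error of that difference are set in part by the floor, and it was -4.49 with a floor of 1 and -2.98 with a floor of 32. Without injection clone 2 or without injection clone 3 the injection call was lost, at an adjusted p of up to 0.0579. Against male embryos the fusion clones differed by 0.60 (limma adjusted p = 0.616) and the injection clones by -0.72 (limma adjusted p = 0.394). A normexp background correction reduced the difference from female embryos to -1.93 (adjusted p = 0.0240).

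Cdk2, the kinase partner of cyclins E and A, read 8.95, 9.66, 9.52 and 10.02 in the fusion clones, 9.49, 9.502, 9.22 and 10.03 in the injection clones, 10.85, 10.02 and 11.02 in male and 10.97, 11.40 and 10.80 in female IVF embryos. All clones lay below the female embryos, and 1 male embryo lay among the clones. The difference was -1.52 ± 0.30 in fusion clones (limma adjusted p = 0.0306) and -1.50 ± 0.25 in injection clones (limma adjusted p = 0.0396). A second Cdk2 probe, well above background on every array, went the other way, by 0.89 in fusion clones (limma adjusted p = 0.291) and 1.34 in injection clones (limma adjusted p = 0.132), and the mean of both probes gave -0.31 and -0.08. Leaving out single arrays kept the fusion call for 2 of 7 arrays and the injection call for 1 of 7, with adjusted p-values up to 0.0774 and 0.0967.

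**Figure D4:**
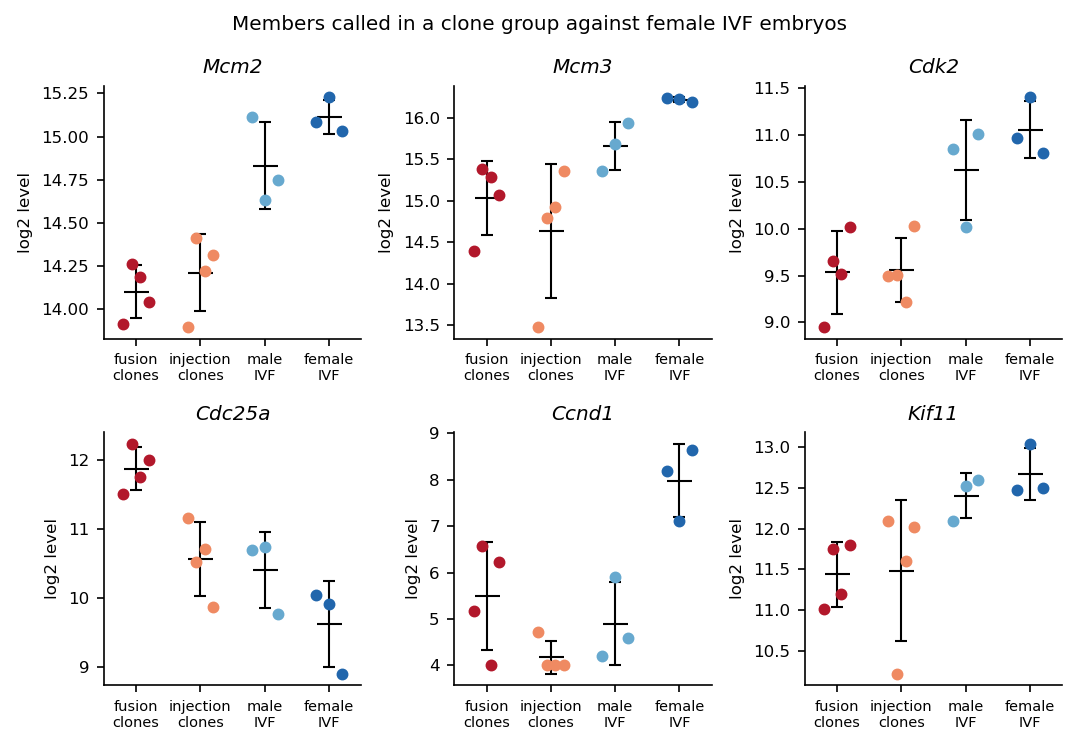
Log2 level by array of the 6 members that passed an adjusted p of 0.05 in fusion or injection clones against female IVF embryos, with the mean and SD in black. Mcm2 and Kif11 separate the clones from the male and the female IVF embryos, Cdc25a is highest in the fusion clones, and Ccnd1 is highest in the female IVF embryos, with 3 of 4 injection clones at the floor of 4.0.

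Ccnd3 (cyclin D3) read 12.15, 12.31, 12.37 and 12.82 in the fusion clones, 11.88, 11.59, 12.08 and 12.41 in the injection clones, 11.94, 11.87 and 12.23 in male and 13.43, 13.06 and 12.31 in female IVF embryos. It overlapped between clones and female embryos, at -0.52 ± 0.31 and -0.94 ± 0.33 (limma adjusted p = 0.349 and 0.159). Ccne1 (cyclin E1) read 15.16, 15.43, 15.04 and 15.22 in the fusion clones, 15.05, 15.17, 14.69 and 14.96 in the injection clones, 14.50, 14.50 and 14.73 in male and 15.19, 14.73 and 15.30 in female IVF embryos. The clones overlapped the female embryos, with differences of 0.14 ± 0.20 and -0.11 ± 0.20, and the males lay lowest. Ccnd2 was well above background on 1 or 2 arrays of each group, and its differences of -1.67 ± 1.01 and -1.02 ± 1.23 were within the spread. Ccne2 (cyclin E2) differed by -0.80 ± 0.64 and -1.15 ± 0.61.

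The 16 mitosis genes had lower means than in female embryos in 16 of 16 in fusion clones and 15 of 16 in injection clones, with medians of -0.42 and -0.42. Kif11 was called in fusion clones (1 of 16, 6.25%, below the 9.06% of all genes), and 0 were called in injection clones, beside 3.75% of all genes. Kif11, the kinesin that pushes spindle poles apart, read 11.01, 11.76, 11.20 and 11.80 in the fusion clones, 12.09, 10.22, 11.60 and 12.03 in the injection clones, 12.10, 12.52 and 12.60 in male and 12.47, 13.04 and 12.496 in female IVF embryos. The highest clone lay just below the lowest IVF embryo. The difference was -1.23 ± 0.28 in fusion clones (limma adjusted p = 0.0443) and -1.18 ± 0.49 in injection clones (limma adjusted p = 0.219). The fusion call was lost without any 1 of the 7 arrays, at an adjusted p of 0.0588 to 0.102. Another Kif11 probe, well above background on 2 of these 7 arrays, gave 0.89 ± 0.56 in the opposite direction, and the mean of all Kif11 probes gave -0.26 (limma adjusted p = 0.501).

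Ccna2 (cyclin A2) read 14.34, 14.85, 14.91 and 15.32 in the fusion clones, 15.53, 14.72, 15.14 and 15.23 in the injection clones, 15.55 and 15.71 on the 2 male arrays with a value and 15.49, 15.89 and 15.69 in female IVF embryos. All fusion clones lay below the female embryos (-0.84 ± 0.26, limma adjusted p = 0.0990), and the injection clones overlapped them (-0.54 ± 0.22, limma adjusted p = 0.221). Cdk1, the mitotic kinase, read 11.47, 12.32, 12.33 and 12.77 in the fusion clones, 12.39, 11.94, 12.30 and 13.02 in the injection clones, 12.90, 12.91 and 12.93 in male and 12.85, 13.51 and 13.01 in female IVF embryos. The fusion clones lay below the female embryos (-0.90 ± 0.34, limma adjusted p = 0.155), and 1 injection clone lay among them (-0.71 ± 0.30, limma adjusted p = 0.225). Ccnb1 (cyclin B1) read 15.29, 15.95, 15.78 and 16.60 in the fusion clones, 16.38, 15.80, 15.76 and 16.16 in the injection clones, 15.35, 15.47 and 15.74 in male and 15.92, 16.14 and 16.10 in female IVF embryos. Its groups overlapped, at -0.15 ± 0.31 and -0.03 ± 0.20, and a second probe gave 0.69 and 0.53 in the opposite direction. Ccnb2 (cyclin B2) differed by -0.36 and -0.64.

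Among the mitotic kinases, the Aurora A kinase gene Aurka, which acts at the spindle poles, had the largest difference in fusion clones. It read 14.62, 14.94, 14.86 and 15.22 in the fusion clones, 15.56, 15.10, 15.32 and 15.76 in the injection clones, 15.37, 15.55 and 15.28 in male IVF embryos, and 16.001 and 15.76 on the 2 female arrays with a value. The fusion clones lay below all IVF embryos, and the injection clones overlapped the male embryos. The difference, fitted on those 2 female arrays, was -0.97 ± 0.24 in fusion clones (limma adjusted p = 0.0623) and -0.45 ± 0.24 in injection clones (limma adjusted p = 0.341). Plk1, the Polo-like kinase, read 12.59, 13.05, 13.21 and 13.58 in the fusion clones, 13.98, 12.53, 13.57 and 13.41 in the injection clones, 12.88, 13.79 and 12.98 in male and 13.998, 14.04 and 13.50 in female IVF embryos. It overlapped in both clone groups, at -0.74 ± 0.28 and -0.47 ± 0.37 (limma adjusted p = 0.156 and 0.486). Aurkb, the Aurora kinase of the chromosomal passenger complex, differed by -0.48 and -0.35, and Birc5 (survivin), of the same complex, by -0.18 and -0.13.

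Genes often used as proliferation markers, Mki67 and Top2a, did not pass by their brightest probes. Mki67, which encodes the Ki-67 antigen, read 15.13, 15.44, 15.83 and 15.80 in the fusion clones, 16.29, 14.89, 15.65 and 15.77 in the injection clones, 15.43, 15.75 and 15.33 in male and 15.73, 15.57 and 15.84 in female IVF embryos. The groups overlapped, with differences of -0.16 ± 0.22 and -0.07 ± 0.33. Top2a, the topoisomerase that untangles sister chromatids, read 11.59, 12.39, 12.36 and 12.87 in the fusion clones, 12.70, 11.35, 11.70 and 12.35 in the injection clones, 12.77, 12.32 and 11.97 in male and 12.82, 12.65 and 12.44 in female IVF embryos. Its brightest probe differed by -0.33 ± 0.32 and -0.61 ± 0.35, whereas a dimmer Top2a probe read 7.72, 7.53, 6.04 and 5.93 in the fusion clones and was not well above background on any female array. The fusion clones averaged 6.99-fold above the floor on that probe, and all 3 females read the floor. The probe entered the comparison through the fusion arrays alone, so that its p-value is not given. Since dim values of clones and IVF embryos may not be alike, the fold is not a safe lower bound. The spindle checkpoint genes Bub1, Bub1b and Mad2l1 differed by -0.33, -0.53 and -0.17 in fusion clones and by 0.06, -0.26 and -0.31 in injection clones, and Cdc20, which activates the anaphase-promoting complex, by -0.52 and -0.48. Cdc25c, the phosphatase that activates Cdk1, differed by -0.21 and -0.40. For 7 of the 16 members with further tested probes in fusion clones, and 7 of 15 in injection clones, at least 1 of those probes went the other way. They were Mcm4, Ccne1, Cdk2, Ccnb1, Mad2l1, Top2a and Kif11 in fusion clones, and Tyms, Cdk2, Ccnb1, Cdk1, Mad2l1, Top2a and Kif11 in injection clones.

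Replication and mitosis genes were compared as classes within each array. Each member was expressed as its deviation from its own mean over the 14 arrays, and the median was taken over the 17 replication and the 16 mitosis genes, with no test because a class is not a replicate. The replication median averaged -0.07 ± 0.22 (SD) in fusion clones, -0.22 ± 0.22 in injection clones, 0.03 ± 0.04 in male and 0.38 ± 0.17 in female IVF embryos. The mitosis median averaged -0.23 ± 0.37, -0.10 ± 0.36, 0.15 ± 0.10 and 0.27 ± 0.10. All 8 clones lay below all 3 female embryos in both medians, whereas the males overlapped the higher clones in both and 1 male lay among the females in the mitosis median. The mitosis median minus the replication median averaged -0.16 ± 0.19 in fusion clones, 0.11 ± 0.40 in injection clones, 0.12 ± 0.12 in male and -0.10 ± 0.09 in female IVF embryos, and the ranges of the 2 clone groups overlapped those of the IVF groups.

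**Figure D5:**
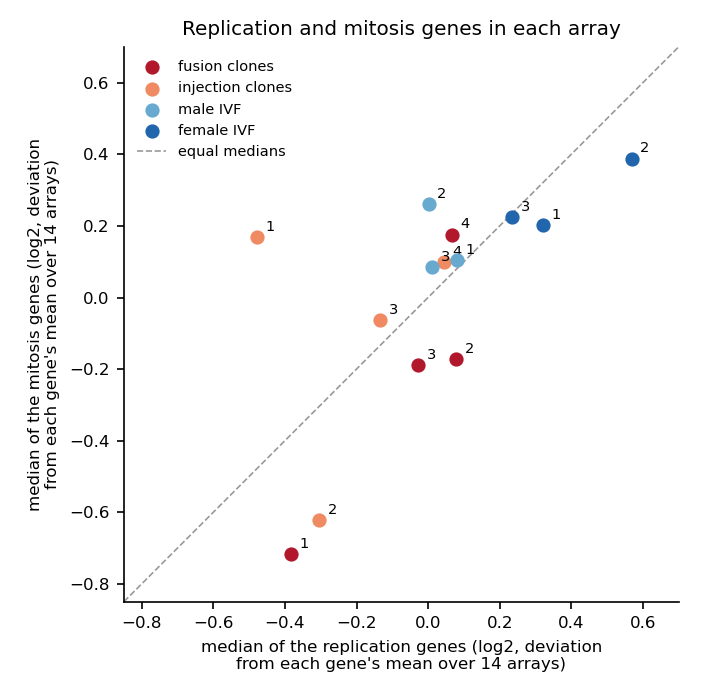
Median deviation of the 17 replication genes (horizontal) and the 16 mitosis genes (vertical) in each of the 14 arrays, in log2 units, with points colored by group and numbered by replicate. The 3 female IVF embryos lie at the upper right, fusion clone 1 and injection clone 2 at the lower left, and injection clone 1 far above the line of equal medians.

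Within each clone group the class medians of single arrays lay further apart than the means of the 2 clone groups. Fusion clone 1 was the lowest of its group in 15 of 17 replication and 14 of 16 mitosis genes, and its medians were -0.38 and -0.72. Fusion clone 4 was the highest of its group in 13 of 16 mitosis genes. Injection clone 1 was the lowest of its group in 11 of 17 replication genes and the highest in 10 of 16 mitosis genes, with medians of -0.48 and 0.17, the widest gap of any array (0.64). Injection clone 2 was the lowest of its group in 14 of 16 mitosis genes, with medians of -0.30 and -0.62. Of these arrays, fusion clone 1 had Sox17 at 10.64, injection clone 1 at 7.06 and injection clone 2 at 4.0, but fusion clone 4, with high mitosis genes, also had Sox17 at 4.0. Pdgfra, at 13.50 to 13.97 in the female embryos, read 12.07 in fusion clone 1, 9.79 in fusion clone 4, 10.97 in injection clone 1 and 11.51 in injection clone 2. Summed over the 4 primitive endoderm markers, a sum in which the Gata6 probe is the largest term on every array, the log2 signal ran from 16.18 to 17.29 in fusion clones, 15.91 to 17.05 in injection clones, 15.95 to 16.54 in male and 16.43 to 17.03 in female IVF embryos. The part of primitive endoderm content in these values was not tested. Within groups the median SD over the 16 mitosis genes was 0.37 in fusion and 0.40 in injection clones, beside 0.22 in male and 0.20 in female IVF embryos. Over all probes well above background everywhere the order was different, at 0.31, 0.37, 0.45 and 0.39.

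Fusion and injection clones differed in none of the 40 members by the adjusted test, and in 0 of 32303 probes (1993 at an unadjusted p below 0.05), so that 0% of all genes passed. With the criterion of the methods 1 member, Cdc25a, passed, beside 2.15% of all genes. Of the members, 19 had a lower and 21 a higher mean in fusion clones, the median difference was 0.01, and 2 had an unadjusted p below 0.05, Cdc25a and Aurka (-0.53 ± 0.19). The median was 0.20 over the replication genes and -0.11 over the mitosis genes. The mitosis minus replication value of -0.31 rested on injection clone 1, without which it was 0.043. Without fusion clone 1, 9 of 40 members had a lower mean in fusion clones in place of 19, and without injection clone 4, 12 did. A p that misses the threshold does not show that the methods act alike.

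Male and female IVF embryos differed in 0 of 40 members, beside 0.0635% of all genes, in a fit that took the arrays as unpaired. An unadjusted p below 0.05 was reached by 3 of 40 members, a share similar to that of all genes (1680 of 22037). They were Ccnd1, Rrm2 and Ccnd3 (-0.92 ± 0.35). All 3 were lower in males, as were the means of 33 of the 40 members. Ccnd1 was the 1 member past the criterion of the methods, beside 5.42% of all genes.

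The wider pathway was read from 4 further gene lists. Of 42 other replication genes, 4 were lower and 1 higher in fusion clones (11.9%, beside 9.06% of all genes), with a median of -0.38. They included the primase subunit Prim2 (-1.07 ± 0.21, limma adjusted p = 0.0312), Dbf4, the activator of the origin-firing kinase (-0.92 ± 0.21, limma adjusted p = 0.0446), and Mcm8 (-0.81 ± 0.17, limma adjusted p = 0.0356), whereas the polymerase delta subunit Pold3 was higher (1.06 ± 0.25, limma adjusted p = 0.0477). In injection clones 2 of 42 were lower and 0 higher (4.76%, beside 3.75%), with a median of -0.37, namely Rpa1, a subunit of the single-strand binding complex (-0.93 ± 0.17, limma adjusted p = 0.0451), and the chromatin assembly factor Chaf1a (-0.80 ± 0.12, limma adjusted p = 0.0324).

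Of 46 other mitosis genes tested, 3 were lower and 2 higher in fusion clones (10.9%, beside 9.06% of all genes), and 0 passed in injection clones. Racgap1, which acts in cytokinesis (-1.35 ± 0.30), the condensin subunit Ncapg (-1.16 ± 0.22) and the kinetochore protein Ndc80 (-0.99 ± 0.17) were lower, and the condensin subunit Smc2 (2.25 ± 0.40) and Fbxo5, an inhibitor of the anaphase-promoting complex (1.21 ± 0.28), were higher. The medians were -0.25 in fusion and -0.29 in injection clones. Of 18 other G1/S genes, the repressor-type E2F gene E2f5 (-1.71 ± 0.35) and Rbl1, the pocket protein p107 (-1.27 ± 0.20), were lower in fusion clones. The activator-type E2f1 (1.21 ± 0.21) was higher. In fusion clones 16.7% were thus called, beside 9.06% of all genes, and 0 passed in injection clones, beside 3.75%. Of 12 inhibitor and checkpoint genes tested, Fzr1, which encodes the Cdh1 activator of the anaphase-promoting complex (-0.97 ± 0.16), was lower in fusion clones. Trp53, which encodes p53 (-0.73 ± 0.16), was also lower, and the checkpoint kinase gene Chek2 (1.78 ± 0.40) was higher. This made 3 of 12 (25%), beside 9.06% of all genes, and 0 passed in injection clones, beside 3.75%. The adjusted p-values of these genes ran from 0.0169 to 0.0454 by limma.

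Myc, a transcription factor that promotes S-phase entry, was chosen after its values were seen, as the gene of these lists with the largest difference. It read 6.43, 10.34, 8.18 and 5.35 in the fusion clones, 6.55, 9.45, 9.44 and 8.65 in the injection clones, 12.87, 11.55 and 12.56 in male and 12.24, 12.57 and 12.01 in female IVF embryos. All 8 clones lay below all 6 IVF embryos, by -4.70 ± 1.15 and -3.75 ± 0.75 against the females, and neither difference passed (limma adjusted p = 0.0529 and 0.0530).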

How the data were processed

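Blastocyst RNA, amplified linearly in 2 rounds and labelled with Cy3, was hybridized to 14 Agilent 1-colour arrays. The authors deposited Feature Extraction intensity values (version 10.5.1 per the labels) and a table of log2 values made in GeneSpring GX 12.5, whose 14 columns all matched a sample (0 did not). The members and lists were chosen with earlier results of these data known.

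From the intensity of the processed signal, 1639 control spots and outlier spots were left out, arrays were quantile-normalized, values below 16 were set to 16, log2 was taken and spots of a probe were averaged. Probes entered a test when a single array of either group detected them above background. Each pair of groups was fitted with limma 3.58.1 (R 4.3.3), with Benjamini-Hochberg adjustment over all probes and a threshold of 0.05. All 40 members were described, with array values for a fixed panel and for up to 3 called members per class and direction. Up to 3 called genes per direction were named from each wider list. Scripts were tested on simulated data. Figures used matplotlib 3.10.9.

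Alternatives were 75th percentile scaling, normexp background correction (offset 50, on median signals, since the clone files hold no mean signal), the deposited log2 values, floors of 1 and 32, other filters, a variance trend, a replicate block, other controls and leaving out each array. Same-numbered male and female IVF arrays deviated together (r from 0.146 to 0.172 over probes in 3 pairs). Fusion and injection clones reached similar values, up to 0.174 with the same number and 0.158 with other numbers. The check therefore cannot decide whether a shared number marks a pair. The main fits, that of male against female embryos included, used no pairs, and only the replicate block did. Depth does not apply to arrays, and their number limits the precision.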

Additional observations from a re-analysis of the deposited data

Results flagged for a closer look

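Of 86 groups of 4 arrays examined for a sample far from the other 3, 4 had one, and chance alone gives about 1 in 20, here 4.3. Fusion clone 1 had Mcm7, a helicase subunit, at a log2 level of 15.5, with the other fusion clones between 15.99 and 16.05. Fusion clone 2 had Ccne2 (cyclin E2) at 5.57, with the others between 7.49 and 7.81. Fusion clone 4 had Cdc20, the activator of the anaphase-promoting complex, at 17.1, with the others between 16.75 and 16.80. Injection clone 1 had Ccnd1 at 4.71, with the other 3 at the floor of 4.0, where values have no order.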

How the results depend on the processing

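No difference of a named member that passed the threshold changed its sign under the alternatives run, and causes of the changes were not tested. Of the members with array values that did not pass, 9 in fusion and 8 in injection clones had the other sign under at least 1 alternative, most often Cdt1 (5 alternatives) in fusion and Ccnb1 (8 alternatives) in injection clones. In fusion clones against female IVF embryos, 5 members passed. A floor of 1 gave 3 and a floor of 32 gave 8, the deposited values gave 3 and normexp gave 9. The count was 8 with probes well above background on every array of 1 group, 8 with a variance trend, 2 with the mean of all probes, 1 against male embryos, and 2 to 4 when 1 array was left out. Over all probes, 3085 passed, against 1882 genes with the mean of all probes and 1349 to 3156 with 1 array left out. In injection clones 3 members passed, against 1 with the deposited values, 1 with a floor of 1, 5 with all 4 groups in 1 fit, 0 against male embryos and 0 to 2 with 1 array left out. Over all probes 1205 passed, against 629, 599, 774 without a filter, 1932 with the stricter filter, 3100 with all 4 groups, 2701 against both sexes, 800 genes with the mean of all probes and 173 to 1366 with 1 array left out. The mitosis minus replication difference there was 0.16, and 0.45 with the mean of all probes.

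Between fusion and injection clones 0 probes passed, against 2 with the deposited values, 11 with a floor of 1, 1 with all 4 groups and 0 to 2 with 1 array left out. The mitosis minus replication difference was -0.31 and ran from -0.47 to 0.043 with 1 array left out, the latter without injection clone 1. At the methods' threshold 1 member passed there and 1 between the sexes. Between male and female IVF embryos 19 probes passed, against 7 with normexp, 151 with the deposited values, 100 with a floor of 1, 34 without a filter, 58 with the stricter filter, 205 with all 4 groups, 3 with a variance trend and 1 to 39 with 1 array left out. The mitosis minus replication difference was 0.07 and ran from 0.035 to 0.25 with 1 array left out.

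With the replicate number as a block, 0 members and 0 probes passed in either clone group against female embryos and 0 probes between the sexes, and the mitosis minus replication differences were -0.06, 0.37, -0.31 and 0.07. Clone arrays and same-numbered arrays of other groups had r from -0.12 to 0.17. With the deposited values the share of calls that were lower fell from 54.5% to 37.5% in fusion and from 58.3% to 35.9% in injection clones, as the median of all probes moved from -0.12 to 0.05 and from -0.08 to 0.07. The medians of the members there were -0.52 and -0.57.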
